A study of Arabidopsis thaliana with 27 samples.

Results

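The plastid genome of Arabidopsis thaliana was measured with 69 probe sets, 1 for each of 69 genes, among the 22743 probe sets that were tested. They were chosen by gene symbol alone and not by any measured value: accD, rbcL, matK, cemA, ccsA, clpP and the symbols that begin with psa, psb, pet, ndh, rpo, ycf, rpl, rps or atp, written in lower case as organelle genes are. A RefSeq gene table of assembly TAIR10.1 placed all 69 on the plastid genome. They comprise 5 genes of photosystem I, 15 of photosystem II, 6 of the cytochrome b6f complex, 6 of the ATP synthase, 10 of the NDH complex, 15 of the ribosome, 4 of the RNA polymerase and 8 others. A further 8 probe sets of 7 plastid genes with 2 copies in the inverted repeat (ndhB, rpl2, rpl23, rps7, rps12, ycf1 and ycf2) carry 2 gene entries each and fall outside that choice.

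The RNA came from a habituated suspension culture of ecotype Col-0 that was brought to form tracheary elements, the water-conducting cells of xylem, which thicken their walls and then die. Cells of a culture aged 7 days were put into fresh Murashige and Skoog medium with sucrose, 6 µg/ml of the auxin NAA, 1 µg/ml of the cytokinin BAP and 4 µM of the brassinosteroid epibrassinolide. Samples were taken at 0, 12, 24, 36, 48, 60, 72, 84 and 96 h in 3 independent time-courses, A, B and C, so that each of the 9 times has n = 3 arrays and there are 27 arrays in all. According to the labels, cells divided and were undifferentiated at 0 h, stopped dividing and began to expand by 12 h, had not begun secondary walls at 48 h, laid them down from 60 h and had finished them at 96 h, when they prepared to die. All groups share the culture, the medium and the 3 hormones. A culture without the hormones was not analysed here, so the effects of hormones and of fresh medium cannot be told apart, and every comparison with 0 h uses the same 3 arrays of 0 h. The samples are whole cultures, in which fewer cells of a type and less RNA per cell cannot be told apart.

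A plastid keeps a small genome of its own that encodes part of the photosynthetic complexes and part of the machinery that transcribes and translates them. In land plants that genome is read by a bacterial-type polymerase, whose core subunits the plastid itself encodes (the rpo genes), and by phage-type polymerases encoded in the nucleus. Work in tobacco assigned the photosystem genes and rbcL mainly to the former, and accD and the rpoB operon to the latter. Most plastid genes lie in operons and are transcribed together with their neighbours. Plastid transcripts mostly lack a stable poly(A) tail, while the usual labelling for such arrays primes on poly(A), so these probe sets may record a small and variable fraction of plastid RNA. Whether that held for these arrays was not tested.

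Plastid-encoded signals were low for most genes, lay in 1 order over the 3 time-courses for most genes, and were on balance lower at 48 h than at 0 h. On the deposited log2 scale, whose lowest value is 0, 13 of the 69 genes stayed under 1 on all 27 arrays, 20 had all 9 time means under 1, and 38 had a mean over 1. Genes with a mean over 4 numbered 12: psaB (photosystem I core), psbM and psbJ (small photosystem II subunits), atpB and atpE (ATP synthase), ndhI (NDH complex), rpl32, rps3 and rps4 (ribosomal proteins), rpoA (polymerase), matK (a maturase for group II introns) and clpP (a protease subunit). Signals of different probe sets are not on a common scale, and the levels below are compared within a probe set only.

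The arrays of time-course B stood apart before any comparison over time. Averaged over the 9 times, B was the highest of the 3 time-courses for 55 of the 69 plastid genes (79.7%, against 38.9% of all probe sets tested), and A the lowest for 56 (81.2% against 37.7%). The order A, C, B from low to high held for 50 genes (72.5% against 23.3%). At every one of the 9 times B lay above A for 29 of 69 genes, 42.0%, where the background over all probe sets was 2.93%, and A lay above B at every time for 0 of 69 (background 3.82%). C lay above A at every time for 8 genes (background 1.96%) and below B for 19 (background 2.4%). Ranked by the mean difference of B over A, 9 of the first 10 probe sets of the 22743 were plastid genes of the choice above, as were 12 of the first 20 and 18 of the first 50. The largest was rpl20, a protein of the large ribosomal subunit, at 3.11 log2 units, followed by rps19 (2.94), psaI (2.79), rps3 (2.73) and matK (2.69); rps7, one of the genes with 2 copies, took the third place. The A arrays of rpl20 ran from 0.64 to 4.62 over the 9 times, the B arrays from 2.55 to 6.14 and the C arrays from 0.90 to 3.05. A single A array, that of 96 h at 4.62, reached the range of B.

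The gap between B and A was wide for the genes of the expression machinery and narrow for the NDH and photosystem II genes. Its median over members was 2.06 log2 units for the polymerase, 1.80 for the ribosome and 1.58 for photosystem I. It was 0.89 for the ATP synthase, 0.70 for cytochrome b6f, 0.78 for the 8 others, 0.17 for NDH and 0.06 for photosystem II. Over all 69 genes it was 0.61, beside 0.62 for mitochondrially encoded probe sets and 0.01 over all probe sets. These are descriptions with no test, and members of an operon share transcripts. The exception among the polymerase genes was rpoB, which stayed near the floor of the scale and differed by 0.08. A mean over 1 was reached by 13 of the 19 ribosome and polymerase genes, 7 of 15 photosystem II genes and 3 of 10 NDH genes. Of these photosystem II and NDH genes, psbZ, ndhI, ndhC and psbI differed by 1.03 to 1.64, and the rest by -0.37 to 0.06. Ribosome genes with a mean under 1 differed by 0.13 (rps14) to 0.79 (rps2). The part of signal level in the contrast was not tested. An RNA quality measure moved with part of this gap: the 3' minus 5' difference of the GAPDH control was 2.99 to 4.38 on the B arrays of 0, 60, 72, 84 and 96 h and 0.35 to 1.90 on the other 22. Over the 19 ribosome and polymerase genes the median of B minus A was 2.41 at those 5 times and 1.27 at the 4 times from 12 to 48 h. At 12, 24, 36 and 48 h singly it was 0.8, 2.27, 1.1 and 1.47. The GAPDH difference at these 4 times was 0.73, 1.90, 0.92 and 1.39 in B and 1.05, 0.35, 0.45 and 0.42 in A. The part of RNA quality in the gap was not tested.

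**Figure D1:**
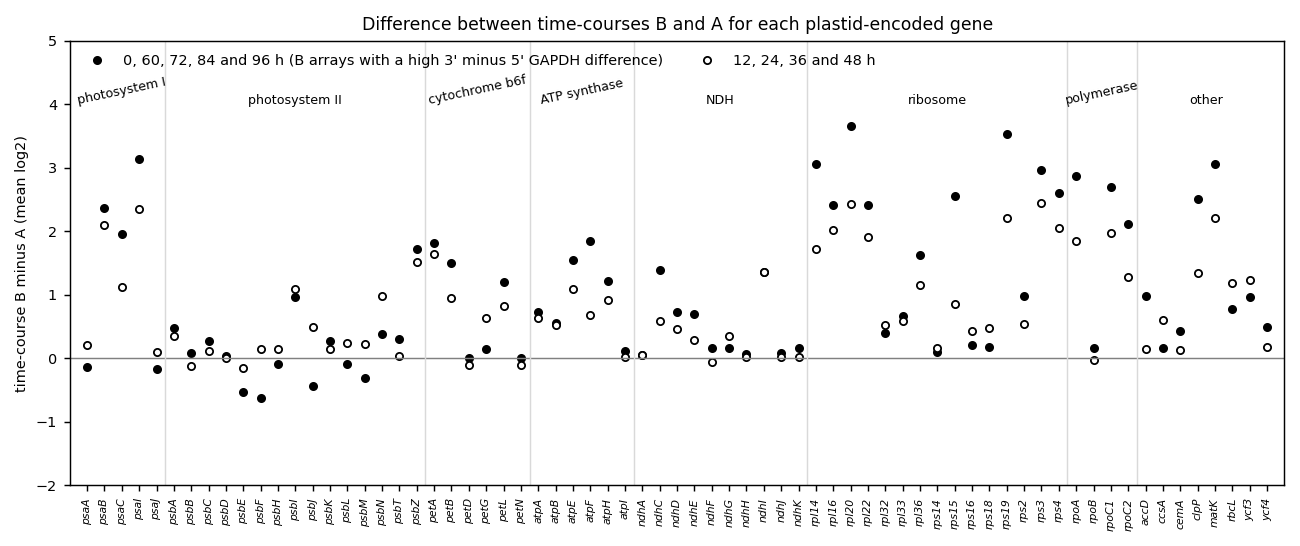
Difference between time-courses B and A in mean log2 signal for each of the 69 plastid-encoded genes, by group; filled points average the 5 times at which the B array had a high 3' minus 5' GAPDH difference and open points the other 4 times. Ribosome and polymerase genes lie mostly above 1, and photosystem II and NDH genes mostly near 0. A mean signal over 1 was reached by 7 of 15 photosystem II and 3 of 10 NDH genes.

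The 3 time-courses also had their extremes at different times. In time-course A the highest array was that of 96 h for 36 of 69 genes (52.2%, against 13.1% of all probe sets), and for 15 of the 19 ribosome and polymerase genes. In time-course C it was that of 0 h for 34 of 69 (49.3% against 13.8%), and the lowest was that of 96 h for 18 (26.1% against 7.49%). In time-course B the 0 h array was highest for 23 genes (33.3% against 12.8%). At 48 h the array was the highest of its time-course for 0 genes in A, 0 in B and 2 in C. The GAPDH difference of A was also highest at 96 h (1.65), while that of C was highest at 60 h (1.77) and 1.50 at 0 h. On a second GAPDH control pair A was again highest at 96 h (0.40), while C was highest at 72 h (0.62) and 0.60 at 0 h. The part of the GAPDH difference in these profiles was not tested.

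Which plastid genes differed from dividing cells at 0 h was asked with 1 mean per time fitted to all 27 arrays in limma, with p-values adjusted over all 22743 probe sets and a call at an adjusted p under 0.05. At 12 h, 1 of 69 genes fell and 1 rose, beside a background of 8.67% called down and 8.48% called up, 17.1% in all. The gene that fell was atpH, the ring subunit of the membrane part of the ATP synthase, with signals of 0.75, 3.03 and 2.47 in A, B and C at 0 h and 0.59, 0.64 and 0.32 at 12 h. Its difference was -1.56 ± 0.52 (SE), with an adjusted p of 0.0423 in limma; the 3 time-courses gave -0.16, -2.39 and -2.15, and the B and C arrays carried the fall. The 3 arrays of 12 h were all below the 3 of 0 h, the A array of 0 h by little. The gene that rose was rps16, a small-subunit ribosomal protein, from 0.00, 0.19 and 0.50 to 0.48, 1.53 and 0.62, a difference of 0.65 ± 0.21 (adjusted p = 0.0385). These rps16 values lie at the floor of the scale, 0 in the A array of 0 h, and the arrays of the times overlapped. Leaving out 1 array at a time, the atpH call was kept without the A array of 0 h alone and was lost without any other array of the 2 times (adjusted p from 0.0779 to 0.241); the rps16 call was lost without the A or B array of 0 h or the B array of 12 h (from 0.0988 to 0.322). With the block the adjusted p was 0.00109 for atpH and 0.0139 for rps16.

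At each of the other 7 times limma called 0 of 69 plastid genes against 0 h. The background called in either direction was 12.2% at 24 h, 13.5% at 36 h, 11.7% at 48 h, 13.2% at 60 h, 6.57% at 72 h, 6.31% at 84 h and 4.51% at 96 h. At an unadjusted p under 0.05 the members numbered 1 at 24 h, 2 at 36 h, 3 at 48 h, 1 at 60 h, 6 at 72 h, 6 at 84 h and 3 at 96 h. Every probe set called after adjustment passes this looser threshold too, so its background is at least the share given for each time. Steps between other times gave 0 calls as well, for 24 h against 12 h (background 12.6%, 1 member unadjusted), 72 h against 48 h (background 0.44%, 0 unadjusted) and 96 h against 72 h (background 0.0044%, 2 unadjusted). The backgrounds of these steps are shares called after adjustment. The unadjusted counts cannot be set against them and show no excess of plastid genes. The moderated F test over the 9 times called 0 of 69 beside 23.1% of all probe sets. At an unadjusted p under 0.05 it gave 3 of 69 (4.35%, against 32.7% of all probe sets): psbF, petN and ccsA. This fit counts the gap between the time-courses as spread between replicates: for rps4, a ribosomal protein gene, the SE at 48 h was 1.03, against 0.42 with the time-course in the model.

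Since the 3 letters mark independent time-courses, each time was also compared within time-courses, with the letter as a block in the same model, and there more plastid genes were called, nearly all downward. The counts down were 4 at 12 h (background 11.2%), 4 at 24 h (9.07%), 6 at 36 h (10.2%) and 12 at 48 h (8.88%). They were 3 at 60 h (background 10.1%), 5 at 72 h (5.52%), 6 at 84 h (5.64%) and 2 at 96 h (4.29%). Up, 2 genes were called at 12 h (background 10.6%) and 0 at each later time (background 8.33% at 24 h, 8.67% at 36 h, 7.51% at 48 h, 6.92% at 60 h, 3.9% at 72 h, 3.54% at 84 h and 2.54% at 96 h), with at most 3 at an unadjusted p under 0.05. The members' share called down was 17.4% at 48 h, above its background, and at the other times 2.9% to 8.7%. It was also above the background at 72 h (5 of 69 against 5.52%) and at 84 h (8.7% against 5.64%). At 12, 24, 36, 60 and 96 h it was below. At 12 h the 4 genes down were atpH, petB, rpl36 and psbA, and those up were rbcL and rps16; at 24 h atpH, petB, psaC and rps4 were down. At 36 h the list was petB, psaB, rps4, rpl36, rpoA and atpE, at 60 h petB, psaB and rps4, and at 72 h these 3 with ndhC and psbA. At 84 h petB, psaB, rps4, rpl36, psbA and atpH were called down, and at 96 h psaB and atpH. The step from 12 h to 24 h gave 1 gene up, atpA (background 7.66%), the later steps gave 0 (background 0.682% and 0.0396%, 2 and 5 members at an unadjusted p under 0.05), and the F test called 8 of 69 (background 32.1%): psaB, psbA, psbF, atpA, atpE, atpH, rps4 and rbcL. All backgrounds of the blocked fit are shares called after adjustment, and the unadjusted counts cannot be set against them.

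At 48 h, the last stage before wall deposition, 61 of the 69 plastid genes had a lower mean than at 0 h. Their median difference was -0.40 log2 units. Over all probe sets tested the median was 0.02, so most of those were not lower. In all 3 time-courses 29 genes were lower (42.0%, against 22.6% of all probe sets) and 1 was higher. The lowest of the 9 time means was that of 48 h for 25 of 69 genes (36.2%, against 8.64% of all probe sets). The highest was that of 0 h for 27 of 69 (39.1% against 15.1%). Values below 0 h were not confined to 48 h: the median of the time means over members was 1.57 at 0 h and 1.06 at 12 h. At the later times it ran from 0.94 at 48 h to 1.37 at 96 h. By group, the median difference was -1.24 for the ribosome, -1.20 for the polymerase, -1.13 for photosystem I and -0.49 for the 8 others. It was -0.33 for the ATP synthase, -0.32 for photosystem II, -0.21 for NDH and -0.05 for cytochrome b6f. A was the weakest time-course: over the 19 ribosome and polymerase genes the medians were -0.34 in A, -1.66 in B and -1.43 in C. The GAPDH difference of A, B and C was 0.53, 3.74 and 1.50 at 0 h and 0.42, 1.39 and 1.11 at 48 h in the same order, lower at 48 h in each and most so in B. A second GAPDH control pair gave 0.006, 0.95 and 0.60 at 0 h and 0.19, 0.56 and 0.05 at 48 h, so it was higher at 48 h in A. With the difference of the first pair added to the blocked model, 3 of the 12 calls at 48 h remained. Without time-course A all 12 remained, and without B or C none did. Of all probe sets, these 4 settings called 15.1%, 18.7%, 7.95% and 5.11% in either direction, against 16.4% in the blocked fit of all arrays. These blocked settings were chosen after seeing the data.

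**Figure D2:**
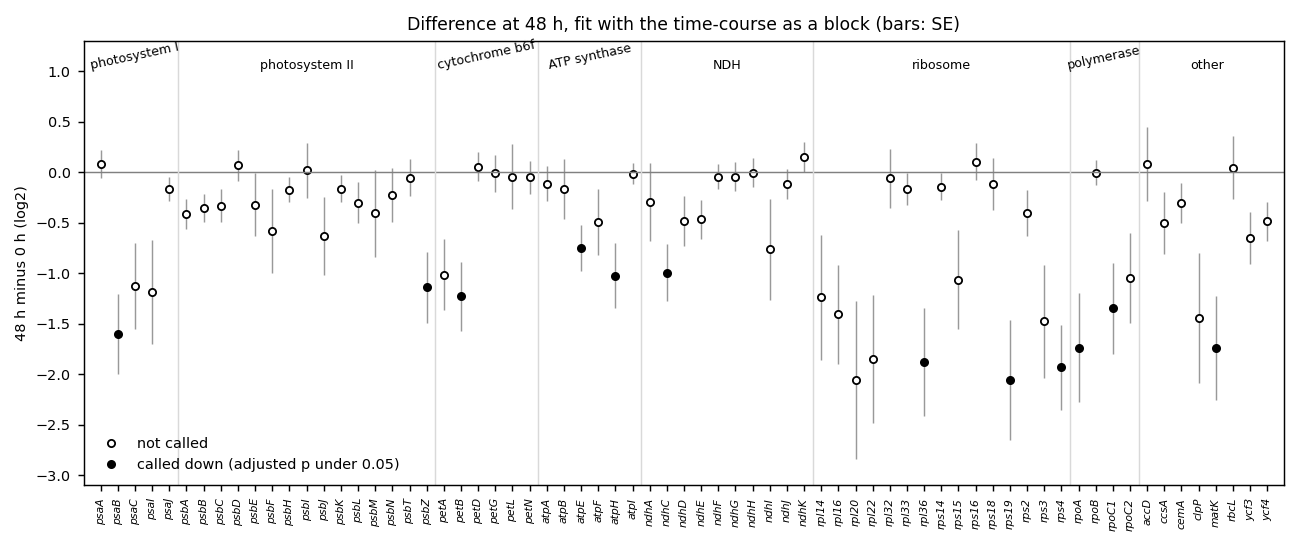
Difference in log2 signal between 48 h and 0 h for the 69 plastid-encoded genes by group, with the standard error of the fit with the time-course as a block. Filled points are the 12 genes called down at an adjusted p under 0.05, from -0.75 for atpE to -2.06 for rps19.

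The 12 genes called down at 48 h in the blocked fit came from every group: rpoA and rpoC1 of the polymerase, rps4, rps19 and rpl36 of the ribosome, psaB, psbZ, petB, atpE, atpH and ndhC of the photosynthetic complexes, and matK. All 12 were lower at 48 h in 3 of 3 time-courses, and for each of them the 0 h and 48 h arrays overlapped. Their values follow with their groups, and SE and adjusted p are from limma, given without the block and then with it.

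**Figure D3:**
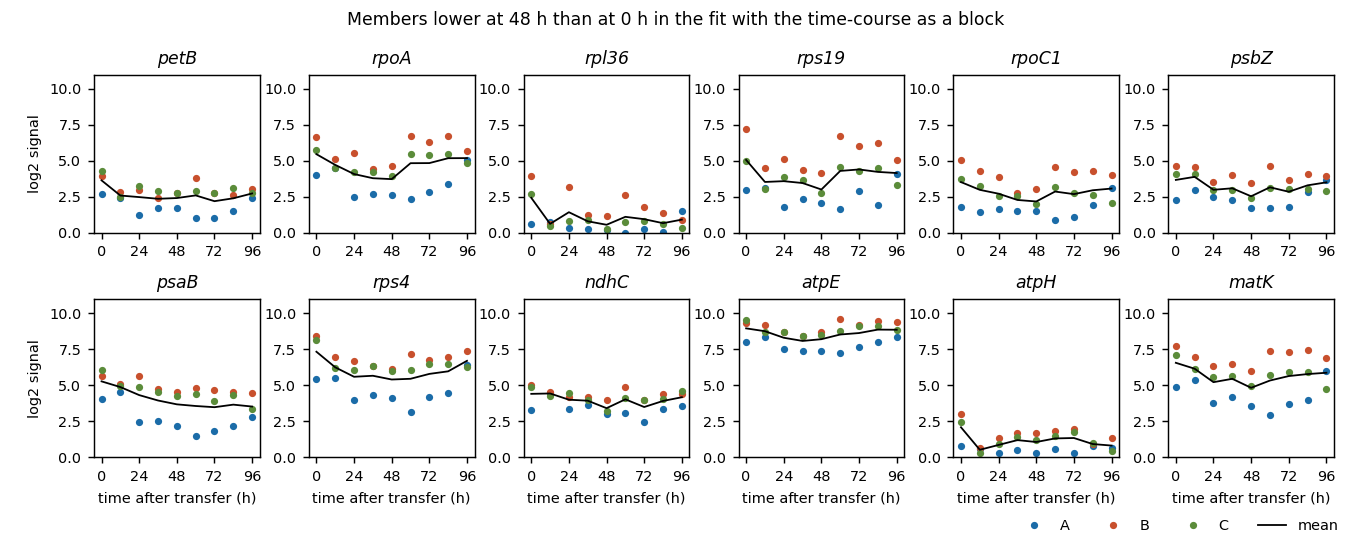
Log2 signal on every array of time-courses A, B and C at the 9 times (0 to 96 h) for the 12 genes called down at 48 h in the fit with the time-course as a block; lines join the means of the 3 arrays. For most of them the A arrays lie lowest until 84 h.

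The rpo genes encode the core of the plastid's own RNA polymerase, rpoA the alpha subunit, rpoB the beta subunit, and rpoC1 and rpoC2 the split beta' subunit. Time means of rpoA ran from 3.73 at 48 h to 5.46 at 0 h. Its signals in A, B and C were 4.04, 6.63 and 5.72 at 0 h and 2.65, 4.61 and 3.91 at 48 h in the same order, and 5.08, 5.65 and 4.83 at 96 h, where A had come up to the other two. The difference at 48 h was -1.74 ± 1.07 (adjusted p = 0.378), and with the block the SE was 0.54 (adjusted p = 0.0308). For rpoC1 the signals were 1.78, 5.07 and 3.72 at 0 h and 1.50, 3.05 and 1.97 at 48 h, so that A moved little and B and C moved by more than 1.5 units. That difference was -1.35 ± 1.01 (adjusted p = 0.497), and with the block the SE was 0.45 (adjusted p = 0.0466). Time means of rpoC1 ran from 2.17 to 3.52 and those of rpoC2 from 1.48 to 2.66; rpoC2 differed by -1.05 ± 0.79 at 48 h and was not called in either fit. Read by the nuclear-encoded polymerases in tobacco, rpoB stayed between 0.02 and 0.60 on all arrays, with time means from 0.09 to 0.44, too near the floor to follow its operon partners. Of the 4 measured genes that tobacco work assigns to the nuclear-encoded polymerase alone (accD, rpoB, rpoC1 and rpoC2), 3 were lower at 48 h, with a median of -0.53; of the 27 photosystem, cytochrome b6f and rbcL genes 22 were lower, with a median of -0.30. Whether the classes differ was not tested.

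The ribosomal genes of the large ribosomal protein operon were lower together at 48 h. That operon runs from rpl23 to rpoA, and 7 of its genes were measured with a probe set of 1 gene: rps19, rpl22, rps3, rpl16, rpl14, rpl36 and rpoA. All 7 were lower at 48 h in 3 of 3 time-courses, with differences of -2.06 to -1.24 log2 units, with medians of -0.71 in A, -2.08 in B and -2.23 in C. Genes of an operon share transcripts and are not independent measurements. First in the operon among these, rps19 read 2.96, 7.21 and 5.01 at 0 h, 2.07, 4.16 and 2.78 at 48 h and 4.10, 5.06 and 3.29 at 96 h, with time means from 3.00 at 48 h to 5.06 at 0 h. Its difference at 48 h was -2.06 ± 1.26 (adjusted p = 0.377), and with the block the SE was 0.59 (adjusted p = 0.0206). At the far end, rpl36 read 0.62, 3.97 and 2.69 at 0 h, 0.77, 0.59 and 0.48 at 12 h and 0.20, 1.17 and 0.28 at 48 h, so all arrays were under 1 at 12 h, while at 48 h B was still above A and C. The difference of rpl36 at 48 h was -1.88 ± 0.76 (adjusted p = 0.132), and with the block the SE was 0.54 (adjusted p = 0.0195). Between them, rpl22 differed by -1.85 ± 1.04, rps3 by -1.48 ± 1.19, rpl16 by -1.41 ± 1.0 and rpl14 by -1.24 ± 1.11, none of them called in either fit. Time means ran from 1.77 to 3.62 for rpl22, 3.29 to 4.84 for rps3, 1.32 to 2.73 for rpl16, 2.29 to 3.53 for rpl14 and 0.55 to 2.43 for rpl36.

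Outside that operon, rps4, which codes for a protein that starts assembly of the small subunit, was called at more times than most. Its signals were 5.45, 8.40 and 8.16 at 0 h, 5.53, 7.00 and 6.24 at 12 h, 4.09, 6.11 and 6.02 at 48 h and 6.43, 7.41 and 6.27 at 96 h. All time-courses were lower at 48 h, and A had returned above its 0 h value at 96 h while B and C had not. The difference at 48 h was -1.93 ± 1.03 (adjusted p = 0.29), and with the block the SE was 0.42 (adjusted p = 0.00304). With the block, rps4 was called down at every time from 24 h to 84 h. The large-subunit gene rpl20 read 1.26, 6.13 and 2.87 at 0 h and 0.64, 2.55 and 0.90 at 48 h, and its difference of -2.06 ± 1.47 was called in neither fit (adjusted p = 0.47 and 0.0848). The A array of rpl20 went from 1.41 at 84 h to 4.62 at 96 h, while B gave 5.81 and 4.42 and C gave 2.08 and 1.21.

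rpl32 differed little between 0 h and 48 h, but had the second largest F statistic of the ribosome genes (adjusted p = 0.337, moderated F test). Its time means ran from 5.93 at 12 h to 6.88 at 96 h. Signals were 5.55, 6.14 and 6.93 at 0 h, 5.86, 6.08 and 6.50 at 48 h and 6.97, 6.87 and 6.80 at 96 h. The arrays lay farther apart at 0 h than at 96 h. Its B minus A difference was 0.46, and its difference at 48 h was -0.06 ± 0.34. Called up at 12 h, rps16 had time means from 0.10 to 0.88 and was near its 0 h value by 48 h, with 0.35, 0.44 and 0.21. rps15 and rpl20 had time means from 0.80 to 2.31 and 1.36 to 3.42. For the other ribosomal genes time means ran from 0.74 to 1.26 for rpl33, 0.65 to 1.37 for rps18, 0.32 to 0.87 for rps2 and 0.21 to 0.52 for rps14, all close to the floor.

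Many of the photosystem genes lay near the floor of the scale. In photosystem I, psaA and psaB encode the paired core proteins that hold the reaction centre, psaC the terminal iron-sulfur protein, and psaI and psaJ small membrane subunits. psaB signals were 4.07, 5.68 and 6.08 at 0 h, 2.42, 5.63 and 4.92 at 24 h, 2.20, 4.55 and 4.29 at 48 h and 2.81, 4.44 and 3.33 at 96 h, lower than at 0 h in every time-course from 36 h on. The difference at 48 h was -1.60 ± 0.99 (adjusted p = 0.385), and with the block the SE was 0.40 (adjusted p = 0.00792). With the block, psaB was called down at every time from 36 h to 96 h, and its F test over the 9 times gave an adjusted p of 0.00624 (without the block 0.742). Its time means ran from 3.48 at 72 h to 5.28 at 0 h. Its operon partner psaA was near the floor, with time means from 0.50 to 0.72, and differed by 0.08 ± 0.14 at 48 h. psaC read 0.33, 3.86 and 1.34 at 0 h and 0.15, 1.18 and 0.26 at 24 h and was called down at 24 h with the block alone (difference -1.31 ± 0.77, adjusted p = 0.337 without the block and 0.0382 with it), mostly through B. psaI had time means from 1.58 to 2.87 and was not called at any time, and psaJ stayed between 0.35 and 1.05 on all arrays, with time means from 0.51 to 0.90, and its F statistic was the largest of the group.

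Photosystem II was marked by psbM, psbJ, psbF, psbE and psbL, small subunits of which psbE and psbF carry cytochrome b559. Signals of psbM were 7.30, 8.05 and 9.19 at 0 h, 7.63, 7.97 and 7.71 at 48 h and 9.36, 7.83 and 7.82 at 96 h. At 0 h psbM was highest in C and at 96 h in A, the 3 time-courses crossed, and its difference at 48 h was -0.41 ± 0.41. Its time means ran from 7.77 at 48 h to 8.53 at 36 h. psbF had the largest F statistic of all 69 genes (adjusted p = 0.0568 without the block and 0.0346 with it). It read 2.87, 1.93 and 3.58 at 0 h, 3.63, 3.37 and 3.88 at 12 h, 1.80, 2.27 and 2.56 at 48 h and 1.88, 2.37 and 1.66 at 60 h, so its high point lay at 12 h, at 3.63 ± 0.26 (SD, n = 3), and its low point at 60 h, at 1.97 ± 0.36. The 3 arrays of 12 h were all above the 3 of 60 h, a pair of times that was not among the comparisons tested. The other genes of this operon ran from 1.64 at 84 h to 2.70 at 24 h for psbE, 1.1 at 72 h to 1.74 at 12 h for psbL and 4.27 at 60 h to 5.52 at 36 h for psbJ. All 4 had their lowest mean between 60 and 84 h, and none differed much between B and A, with values from -0.37 to 0.06 log2 units.

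psbZ, a small subunit at the edge of the complex, read 2.29, 4.62 and 4.10 at 0 h and 1.74, 3.46 and 2.39 at 48 h, with time means from 2.53 to 3.88 and B above A at 9 of 9 times. Its difference at 48 h was -1.14 ± 0.71 (adjusted p = 0.386), and with the block the SE was 0.35 (adjusted p = 0.0302). psbA encodes the D1 reaction centre protein, whose RNA is abundant in green leaves; here it read 0.86, 1.40 and 0.88 at 0 h, 0.55, 0.76 and 0.59 at 48 h and 0.32, 0.52 and 0.39 at 84 h, with time means from 0.41 to 1.04. It was called down with the block at 12, 72 and 84 h, the last by -0.64 ± 0.21 (adjusted p = 0.0884 without the block and 0.00715 with it), all at low signal. The reaction centre and antenna genes psbD, psbB and psbC had time means from 0.44 to 0.63, 0.17 to 0.53 and 0.79 to 1.16. Those of the small subunits ran from 0.21 to 0.63 for psbH, 0.97 to 1.82 for psbI, 0.29 to 0.64 for psbK, 0.53 to 1.45 for psbN and 0.12 to 0.42 for psbT; psbN is an assembly factor by its known role. Signals of psbH stayed between 0.09 and 0.78 on every array, so that its place as the second F statistic of the group rests on differences at the floor.

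Of the cytochrome b6f complex, which passes electrons between the photosystems, petB encodes cytochrome b6, petA cytochrome f and petD subunit IV, and petG, petL and petN small subunits. petB signals were 2.70, 3.92 and 4.29 at 0 h, 2.44, 2.81 and 2.50 at 12 h, 1.69, 2.77 and 2.77 at 48 h and 1.05, 2.79 and 2.74 at 72 h. All time-courses were below their 0 h value at every later time, and time means ran from 2.19 at 72 h to 3.64 at 0 h. The difference at 48 h was -1.23 ± 0.65 (adjusted p = 0.281), and with the block the SE was 0.34 (adjusted p = 0.0161); with the block petB was called down at each time from 12 h to 84 h. petD, from the same operon, stayed near the floor with time means from 0.40 to 0.58 and differed by 0.05 ± 0.14. petA read 1.65, 3.86 and 4.29 at 0 h, 1.79, 4.25 and 3.76 at 12 h, 1.85, 2.87 and 2.03 at 48 h and 2.19, 3.56 and 2.15 at 96 h, and its difference of -1.01 ± 0.75 at 48 h was carried by B and C and was not called. Time means were 2.25 to 3.27 for petA, 0.41 to 1.50 for petL, 0.13 to 0.59 for petG and 0.64 to 1.31 for petN. petN was highest at 36 h, where it read 1.27, 1.28 and 1.38 against 0.64, 0.89 and 1.03 at 0 h, a difference of 0.46 ± 0.17 that was not called (adjusted p = 0.078). The highest petG signal was 1.004, on the B array of 36 h.

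atpB and atpE encode the beta and epsilon subunits of the catalytic head and lie in 1 operon, while atpI, atpH, atpF and atpA lie with rps2 in another. atpE read 8.01, 9.34 and 9.54 at 0 h, 7.42, 8.71 and 8.50 at 48 h and 8.38, 9.40 and 8.82 at 96 h. A was the lowest time-course throughout, and time means ran from 8.09 at 36 h to 8.96 at 0 h. Its difference at 48 h was -0.75 ± 0.59 (adjusted p = 0.521), and with the block the SE was 0.23 (adjusted p = 0.0264), and at 36 h it was -0.87 ± 0.59 (adjusted p = 0.4 without the block and 0.00913 with it). atpB gave 6.97, 6.34 and 7.91 at 0 h and 6.52, 6.92 and 7.28 at 48 h, lower in A and C and higher in B, and its time means ran from 6.74 to 7.34. After its fall at 12 h, atpH read 0.29, 1.32 and 0.95 at 24 h, 0.28, 1.71 and 1.19 at 48 h and 0.65, 1.35 and 0.44 at 96 h; the B and C arrays stayed below their 0 h values. The difference of atpH at 48 h was -1.02 ± 0.52 (adjusted p = 0.261), and with the block the SE was 0.32 (adjusted p = 0.0328), and time means ran from 0.52 to 2.08. atpA, the alpha subunit, was highest at 24 h, where it read 0.68, 1.66 and 1.52 against 0.21, 0.60 and 0.71 at 12 h; that step was 0.78 ± 0.33 (adjusted p = 0.148), and with the block the SE was 0.18 (adjusted p = 0.00327). Time means of atpA ran from 0.41 to 1.29, of atpF from 0.48 to 1.09, and of atpI, which never exceeded 0.31, from 0.04 to 0.19.

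The NDH complex routes electrons around photosystem I, and 7 of its 10 measured genes had no time mean above 1.26. ndhI read 4.60, 5.67 and 6.62 at 0 h, 6.17, 6.01 and 5.61 at 12 h, 3.87, 5.59 and 5.14 at 48 h, 2.69, 6.01 and 4.97 at 60 h and 6.31, 6.03 and 5.87 at 96 h. The A arrays moved most, the B arrays stayed between 5.59 and 6.11, and the 48 h difference of -0.77 ± 0.73 was not called. ndhC read 3.30, 5.05 and 4.88 at 0 h and 3.01, 3.98 and 3.25 at 48 h, a difference of -1.0 ± 0.50 (adjusted p = 0.249), and with the block the SE was 0.28 (adjusted p = 0.0184). Its operon partners ndhK and ndhJ differed by 0.15 ± 0.15 and -0.12 ± 0.15 at time means from 0.26 to 0.52 and 0.17 to 0.52, at the floor. ndhA had the largest F statistic of the group and its highest mean at 12 h, with 3.02, 2.08 and 1.78 against 1.64, 0.85 and 2.27 at 0 h, where A and B were higher and C lower; the difference of 0.71 ± 0.40 was not called (adjusted p = 0.294). ndhG, second by that statistic, ran from 0.50 at 84 h to 1.01 at 60 h, with signals from 0.33 to 1.17. Time means ran from 1.18 to 2.29 for ndhA, 3.41 to 4.43 for ndhC, 0.68 to 1.26 for ndhD, 0.17 to 0.64 for ndhE, 0.04 to 0.30 for ndhF, 0.09 to 0.28 for ndhH and 4.56 to 6.07 for ndhI.

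Of the 8 other genes, matK and clpP had clear signal. matK read 4.86, 7.74 and 7.10 at 0 h, 3.59, 5.97 and 4.93 at 48 h and 5.97, 6.91 and 4.75 at 96 h, with time means from 4.83 at 48 h to 6.57 at 0 h. Its difference at 48 h was -1.74 ± 1.14 (adjusted p = 0.417), and with the block the SE was 0.51 (adjusted p = 0.0234). The protease gene clpP read 4.60, 7.44 and 6.46 at 0 h and 3.83, 5.26 and 5.09 at 48 h, lower in every time-course, and its difference of -1.44 ± 0.99 was called in neither fit (adjusted p = 0.445 and 0.151); time means ran from 4.72 to 6.17. rbcL, the large subunit of the carbon-fixing enzyme Rubisco, was the clearest case in the other direction, with 2.1, 1.95 and 2.62 at 0 h, 2.49, 4.38 and 3.76 at 12 h, 2.22, 3.09 and 3.03 at 24 h and 1.70, 2.49 and 2.61 at 48 h. It was higher at 12 h in 3 of 3 time-courses, most in B, by 1.32 ± 0.48 (adjusted p = 0.0636), and with the block the SE was 0.31 (adjusted p = 0.00363). By 48 h the difference was 0.04 ± 0.48, and time means over the course ran from 2.22 to 3.54. ccsA, needed to attach haem to cytochromes, read 3.16, 4.28 and 4.73 at 0 h, 3.48, 4.85 and 4.42 at 12 h and 3.24, 2.98 and 3.08 at 72 h; its difference at 72 h was -0.96 ± 0.33 (adjusted p = 0.0998), and time means ran from 3.10 to 4.25. accD, the plastid subunit of acetyl-CoA carboxylase, ran from 0.57 at 24 h to 1.74 at 96 h, with 2.11, 2.79 and 0.34 on the arrays of 96 h against 0.60, 1.37 and 0.82 at 0 h; A and B were higher and C lower. Time means were 1.14 to 1.82 for ycf3 and 0.88 to 1.42 for ycf4, both assembly factors of photosystem I, and 0.46 to 0.82 for cemA, an envelope protein.

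**Figure D4:**
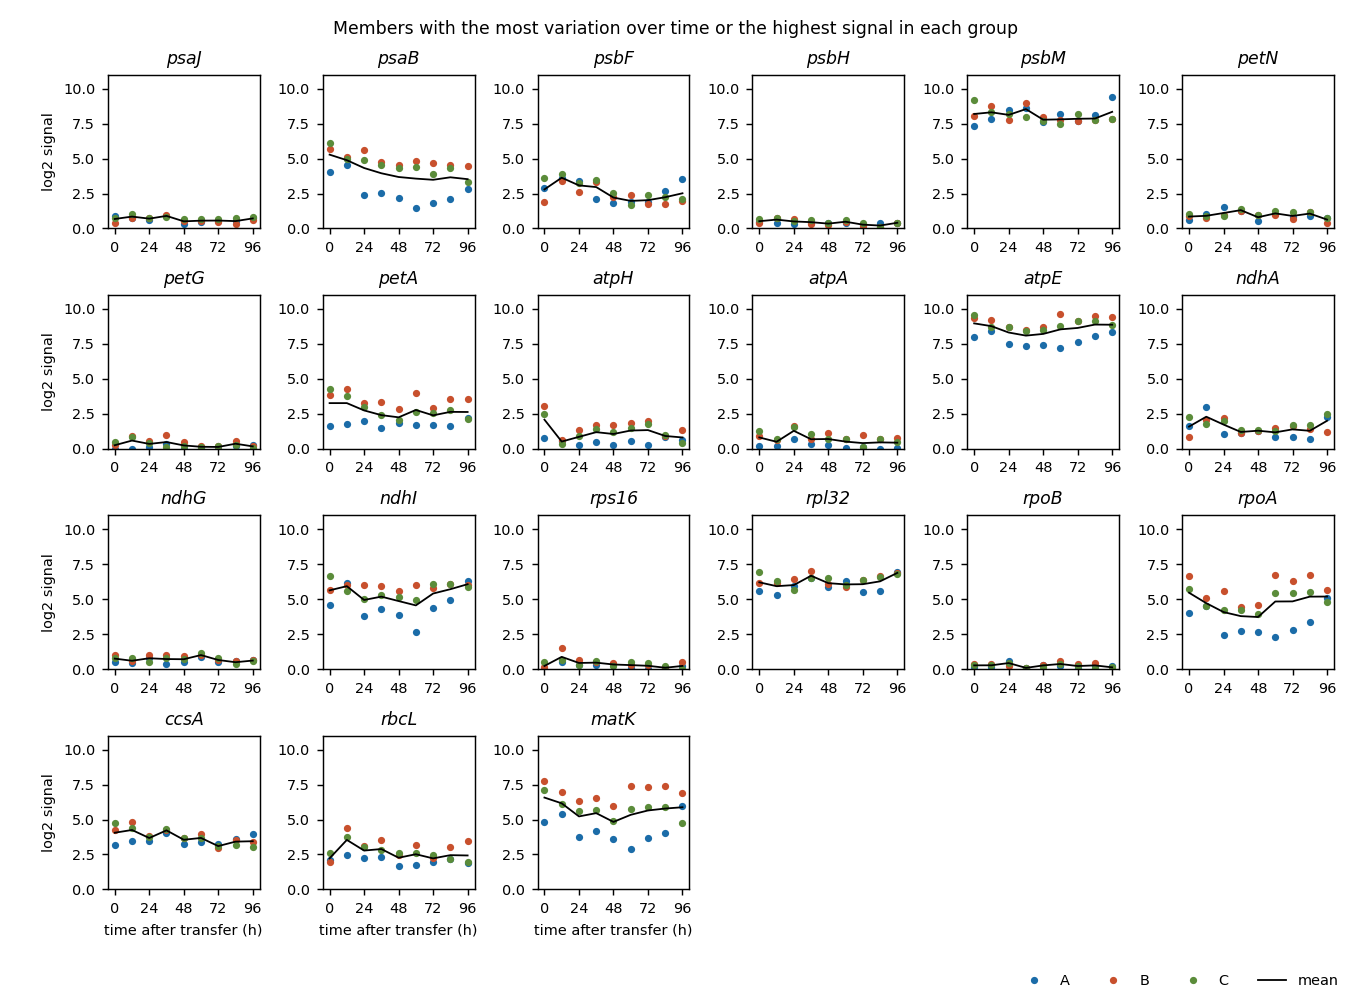
Log2 signal on every array of time-courses A, B and C at the 9 times for the members of each group with the 2 largest F statistics or the highest mean; lines join the means of 3 arrays. psaJ, psbH, petG, atpA, ndhG, rps16 and rpoB lie near the floor, while psbM, atpE and rpl32 stay above 5 throughout.

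Set side by side, the photosystem, NDH, ribosome and polymerase groups differed mainly in how far the time-courses lay apart. For the ribosome the medians over members on the arrays of A, B and C were 0.98, 4.01 and 2.87 at 0 h, 0.64, 2.35 and 0.90 at 48 h, and 1.95, 2.35 and 1.15 at 96 h. For the polymerase they were 1.50, 4.32 and 3.45 at 0 h, 1.13, 2.65 and 1.90 at 48 h, and 2.61, 3.58 and 1.72 at 96 h. Both groups thus started with B and C far above A and ended with A above C. This order was not particular to them. Photosystem I medians were 0.5, 3.9 and 1.3 at 0 h and 1.8, 2.4 and 0.8 at 96 h. Over all 69 genes they were 0.7, 1.6 and 1.9 at 0 h and 1.3, 1.5 and 0.9 at 96 h. Photosystem II medians were 0.86, 1.24 and 1.17 at 0 h and 0.60, 0.79 and 0.85 at 48 h, and NDH medians 0.26, 0.92 and 0.66 and then 0.36, 0.79 and 0.71. These medians lie near the floor, and no test between groups was made. Lower at 48 h in 3 of 3 time-courses were 9 of 15 ribosome genes, 3 of 4 polymerase genes, 2 of 5 photosystem I genes, 4 of 15 photosystem II genes and 3 of 10 NDH genes. From 48 h to 72 h the median over the 19 ribosome and polymerase genes was 0.41 log2 units, with -0.16 in A, 0.68 in B and 0.54 in C. The time-courses thus differed in sign, and none of the 19 genes was called in either fit.

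**Figure D5:**
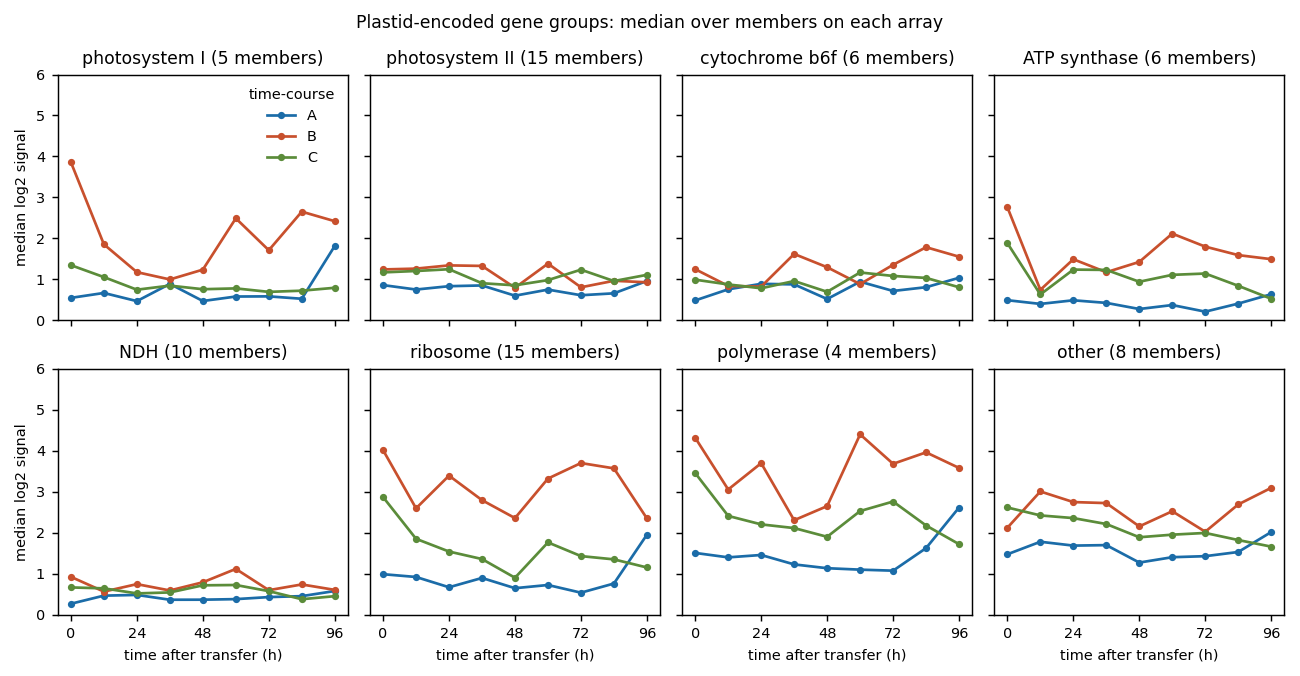
Median log2 signal over the members of each group on each array, by time (0 to 96 h) and time-course. In the ribosome, polymerase and photosystem I panels B lies above A at all times and A goes up at 96 h. The photosystem II and NDH panels stay under 1.5.

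Other genes tied to organelles gave a reference for these values. Mitochondrially encoded genes were measured with 18 probe sets of 11 genes, and a nuclear copy of much of the mitochondrial genome makes their identity uncertain. Their median B minus A was 0.62, beside 0.61 for the 69 plastid genes. B lay above A at 9 of 9 times in 7 of 18 mitochondrial probe sets, beside 29 of 69 plastid genes. The median gap was thus not particular to the plastid genes. At 48 h the median difference of the mitochondrial list from 0 h was 0.05, with 9 of 18 lower. At 96 h against 0 h the median was 0.41 for the mitochondrial list and -0.17 for the 69 plastid genes. Nuclear genes for photosystem, antenna and ATP synthase subunits numbered 9, with a median B minus A of -0.06 and a median of -0.84 at 48 h; limma called 4 of 9 down (background 6.71%). The largest was PSBY, a photosystem II subunit, at -2.30 ± 0.29 (adjusted p = 1.15e-05). The nuclear genes CRR21, CRR22, CRR28, CRR41 and CRR42, taken by symbol, were called by limma at no time. At an unadjusted p under 0.05 they also numbered 0 of 5, and their medians against 0 h ran from 0.01 to 0.08. As for the cell types, the division markers AUR1, AUR2 and PRL fell at 12 h, 3 of 3, by 3.35, 2.87 and 1.13 log2 units. All 3 rose again from 12 h to 24 h, by 2.11, 1.79 and 1.80, and their means at 48 h were 4.95, 4.55 and 3.36, against 5.2, 4.73 and 3.20 at 0 h. From 36 h on limma called none of them against 0 h, and 1 of 3, AUR1 at 60 h, had an unadjusted p under 0.05. Calls below 0 h were thus made at 12 h and, for AUR1 and AUR2, at 24 h, while the labels place the loss of division at 12 h. PRL went the other way at 24 h and was called above 0 h, with means of 3.87 and 3.20. GUT2, also called IRX10 and a xylan synthase of secondary walls, rose at 60 h by 1.57 ± 0.29 (adjusted p = 0.000714). Of the marker lists, 3 of 4 division markers, 1 of 11 tracheary element markers and 0 of 7 green leaf cell markers had a probe set of 1 gene under the symbol sought, so the cell types were checked on these 4 genes alone.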

How the data were processed

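Total RNA of 27 suspension culture samples was hybridised to single-colour Affymetrix arrays. The values are the authors' deposited log2 signals, made with RMA per the submitters' processing notes (version and log base not given in the sources used here; base 2 was assumed). RMA sets arrays on a common scale and can hide shifts of all RNA. Values ran from 0 to 12.26 and were used without further scaling; GEO's platform annotation gave 1 gene for 13511 of the probe sets tested and several for 503, and did not list 8729. After 64 control and 3 empty rows were left out, 22743 probe sets were tested.

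The model was limma 3.58.1 in R 4.3.3 with 1 mean per time over all 27 arrays, Benjamini-Hochberg adjustment and a threshold of 0.05; SE values come from that fit. The letters A, B and C pair arrays, since the series' design text describes independent time-courses: deviations from the time means correlated at a median of 0.60 over 108 same-letter pairs of arrays for the 69 genes (other pairs -0.25) and 0.25 over all probe sets (other pairs -0.12). The fit with the letter as a block is printed beside results it changes. With 3 arrays per time, their number limits the precision.

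Genes shown with every array, in the text or in the plot by time, are, in each group, those with the 2 largest F statistics or the highest mean, plus those called; every other gene is given with its range of time means, and rpl20, psbA, psbE, psbL, psbJ, clpP, accD and other genes described more fully were chosen after their values were seen. Alternatives were other scalings, a filter on low means, array weights, the GAPDH covariate, fewer arrays and left-out arrays or time-courses. The 69 genes and the lists were chosen with earlier results of these data known. The limma step was tested on simulated data. No sequences are shown.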

Additional observations from a re-analysis of the deposited data

How the results depend on the processing

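The limma model without a block called 2 plastid-encoded genes at 12 h and 0 in every other comparison and in the F test. With the replicate block, which pairs arrays of a time-course, the counts were 6 at 12 h, 4 at 24 h, 6 at 36 h, 12 at 48 h, 3 at 60 h, 5 at 72 h, 6 at 84 h, 2 at 96 h, 1 for 24 h against 12 h and 8 in the F test; 72 h against 48 h and 96 h against 72 h stayed at 0. With array weights they were 4 at 12 h, 2 at 48 h, 2 at 60 h, 2 at 72 h, 4 at 84 h, 3 for 24 h against 12 h and 9 in the F test. The GAPDH covariate gave 2 at each of 60, 72, 84 and 96 h and 3 in the F test, centring on the array median gave 1 at 36 h (a gene up), the filter on means gave 1 in the F test, and a fit on the arrays of the times compared alone gave 0 at 12 h. Leaving out 1 array or 1 time-course gave 0 to 6 calls at 12 h, 0 to 5 at 24 h, 0 to 7 at 36 h, 0 to 9 at 48 h, 0 to 4 at 60 h, 0 to 5 at 72 h, 0 to 6 at 84 h, 0 to 4 at 96 h, 0 to 2 for 24 h against 12 h, 0 for 72 h against 48 h, 0 for 96 h against 72 h and 0 to 7 in the F test. The highest of these was without time-course A in every comparison with 0 h, and without B or without C all counts were 0. For the blocked fit, with settings chosen after seeing the data, the 12 calls at 48 h became 3 with the GAPDH covariate, 11 with median centring, 10 after quantile normalization, 18 with the filter on means, and 0 to 26 with an array or a time-course left out (0 without B, 0 without C, 26 without A; 4, 3, 2 and 2 without the B array of 0 h, of 48 h, and the C array of 0 h, of 48 h). The 8 of the blocked F test became 0 to 28 (28 without A, 0 without B or C). No direction reversed. The share of all probe sets called in either direction also moved with the setting. At 48 h with the block it was 16.4%, and 15.1% with the GAPDH covariate. With the filter on means it was 30.7% of 11096 probe sets, and that filter keeps 38 of the 69 genes. It was 18.7% without A, 7.95% without B and 5.11% without C. Without the block, the F test called 23.1%, and 34.6% with array weights. The cause of these changes was not tested, beyond the fewer arrays of the settings that leave some out. Probe sets at the floor limit what can be seen: 13 of the 69 genes stayed under 1 on all arrays.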

Other observations

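The 8 probe sets of plastid genes with 2 copies in the inverted repeat were mostly lower at 48 h: 7 of 8 were lower than at 0 h in 3 of 3 time-courses and none was called by limma (0 of 8 also at an unadjusted p under 0.05). The difference was -1.59 ± 1.22 (SE) for rps7, a small-subunit ribosomal protein, -1.19 ± 1.03 for ycf1, a component of the protein import apparatus of the inner envelope, -0.94 ± 0.98 for rpl2 and -0.68 ± 0.40 for rpl23, both of the large ribosomal subunit. It was -0.24 ± 0.15 for ycf2, -0.20 ± 0.14 for ndhB, and -0.92 ± 0.63 and -0.12 ± 0.30 for the 2 probe sets of rps12, a gene whose transcript is joined by trans-splicing; the 2 probe sets of rps12 thus disagreed in size. Time-course B lay above A at 9 of 9 times for rps7 and ycf1, by a mean of 2.91 and 2.29 log2 units, while ndhB differed by -0.06.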
